A study of Mus musculus with 2 samples.

Results

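Semaphorins are guidance cues that act through plexin receptors, and the class 3 members, which are secreted, mostly need a neuropilin as co-receptor to reach their plexin. Inside the cell, plexins switch small GTPases, and the collapsin response mediator proteins (CRMPs) carry the signal to the cytoskeleton. CRMPs are substrates of Cdk5 and GSK-3, and CHIR99021, the compound tested here, inhibits GSK-3 and thereby stabilises β-catenin. To examine this signalling family in odontogenic cells, the probes of 36 genes were taken by gene name from a mouse expression array: 7 secreted class 3 semaphorins, 13 membrane-bound semaphorins, 9 plexins, 2 neuropilins and 5 CRMPs. All 36 genes had a probe, and they held 85 of the 56605 distinct probes and 36 of the 37074 gene names on the array besides controls.

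The cells were mDE6, a mouse line labelled as odontogenic epithelial cells. There was 1 array of vehicle-treated cells and 1 array of cells treated with CHIR99021, both at 6 h and both labelled with Cy3. The label of the vehicle array reads 0/1%DMSO, while the methods call the control untreated, and the dose is 5 mM in the label and 5 μM in the methods. The methods name a human array, whereas the header of the files names a mouse design and mouse build mm9. Both arrays lay on the same slide, so array position and treatment cannot be told apart, and the number of arrays limits the precision. No difference below was checked on a replicate array, and no test between the conditions was made. For Sema3a alone among the family, the paper reports a separate measurement. By quantitative RT-PCR in independent experiments, it found lower mRNA in these cells after 6 h of CHIR99021 and later.

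The labelled cell type was set against marker genes. Of 10 epithelial markers, 5 had a probe well above background on the vehicle array, among them Trp63 and Perp, whereas Cdh1, Epcam, Krt5, Krt8 and Dsp were not well above background. All 8 dental mesenchyme markers were well above background, as were all 3 leukocyte markers (Ptprc, Cd68 and Itgam), 2 of 6 neuron markers (Tubb3 and Snap25), 1 of 4 Schwann cell markers and 1 of 4 endothelial markers. The leukocyte markers had ratios of CHIR99021 over vehicle of 1.07 (Ptprc), 1.24 (Cd68) and 0.862 (Itgam). The ratio of Krt5 was only a limit, since its signal was 5.5 on the vehicle array and 165 on the CHIR99021 array. The part of other cell types in the values below was not tested.

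Signals are spot intensities after background subtraction, and a ratio is the CHIR99021 signal over the vehicle signal after dividing each by the 75th percentile on its own array (486.7 for vehicle and 469.17 for CHIR99021). The median negative control spot read 5.35 and 5.98, and the dimmest probe well above background read 23.68 and 26.3. The ± given with a log2 ratio is the error that Feature Extraction, the software that quantified the spots, assigns to both spots, carried into the ratio. It covers measurement within these arrays and not the variation between cultures. Between spots of probes printed 10 times, the median SD of the log2 ratio was 0.03 for 254 probes with signals above 5000, 0.155 for 2 probes between 100 and 500, and 0.211 for 2 probes below 100. All 10 probes of the family past a ratio criterion below read under 500 on the vehicle array. Every semaphorin, plexin, neuropilin and CRMP probe was printed once. Signals of different probes are not compared with each other, because probes differ in how strongly they bind.

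Most of the family gave signal in vehicle-treated cells. In total 47 of the 85 probes (55.3%) were well above background on the vehicle array, against 47.7% of all probes, and they belonged to 27 of the 36 genes. On the CHIR99021 array 44 probes of 26 genes were well above background. The secreted ligands were represented by 6 of 7 genes, the membrane ligands by 10 of 13, the plexins by 7 of 9, the neuropilins by both and the CRMPs by 2 of 5. The other 9 genes had no probe well above background on either array: Sema3g, Sema4f, Sema6a, Sema6d, Plxna4, Plxnb3, Crmp1, Dpysl4 and Dpysl5. Of all 37074 gene names, 18836 had a probe well above background on at least 1 array. The family holds more probes per gene (85 for 36) than the array does (56605 for 37074). Its gene counts are therefore descriptions and not a difference from the array.

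**Figure D1:**
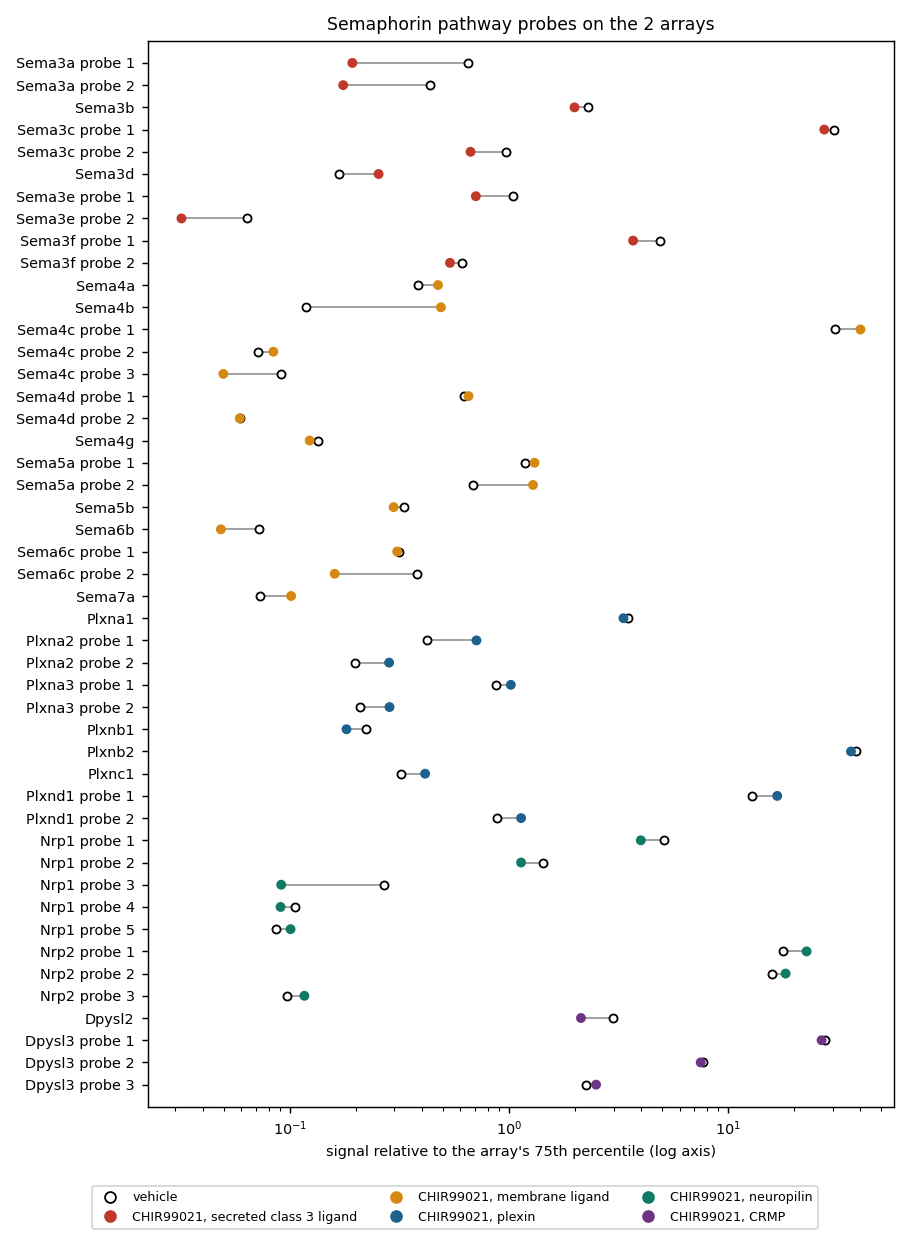
Signal of the 47 probes that were well above background, each relative to the 75th percentile on its own array (log axis). Open circles are the vehicle array and filled circles the CHIR99021 array, coloured by class, and the line joins both readings of the same probe. Most pairs lie close together, and the widest gaps are those of Sema3a, Sema4b, Sema6c and Nrp1.

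Ratios were read for these 47 probes. Of them, 6 (12.8%) had a computed ratio of at most 0.66, the ratio part of the criteria in the study's methods, against 9.68% of all 28064 tested probes, those well above background on either array. The inverse criterion, a ratio of at least 1.5, was met by 4 probes (8.5%) against 8.24% of all. Among the 6 lower probes, those of Sema3e and Sema4c were not well above background on the CHIR99021 array, so that their folds are only limits, and the limit of Sema3e does not reach the criterion. Of the 44 probes measured on both arrays, 4 (9.09%) were lower and 4 (9.09%) higher, where 5.61% and 5.49% of 25024 such probes were. The methods also ask for a Z-score of 2.0, read here as a distance of at least 2.0 SD from the mean of the 500 probes nearest in mean signal. With it, 3 probes (6.38%) were lower and 2 (4.26%) higher, against 2.73% and 2.39% of all. The lower were both Sema3a probes and 1 of Sema6c, and the higher were 1 each of Sema4b and Sema5a. At the probe of each gene with the highest mean signal over both arrays, 1 gene (Sema3a) was lower, 3 genes (Sema3d, Sema4b and Plxna2) were higher and 23 were between, where 9.68% and 8.05% of 18836 gene names were lower and higher. With the probe brightest on the vehicle array instead, Sema6c was lower as well. The median log2 ratio was -0.03 for the family and 0.03 for all tested probes. Of the 44 probes measured on both arrays, 12 (27.3%) differed from 0 by more than 2 errors, 7 lower and 5 higher, against 19.3% of all probes measured on both arrays.

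**Figure D2:**
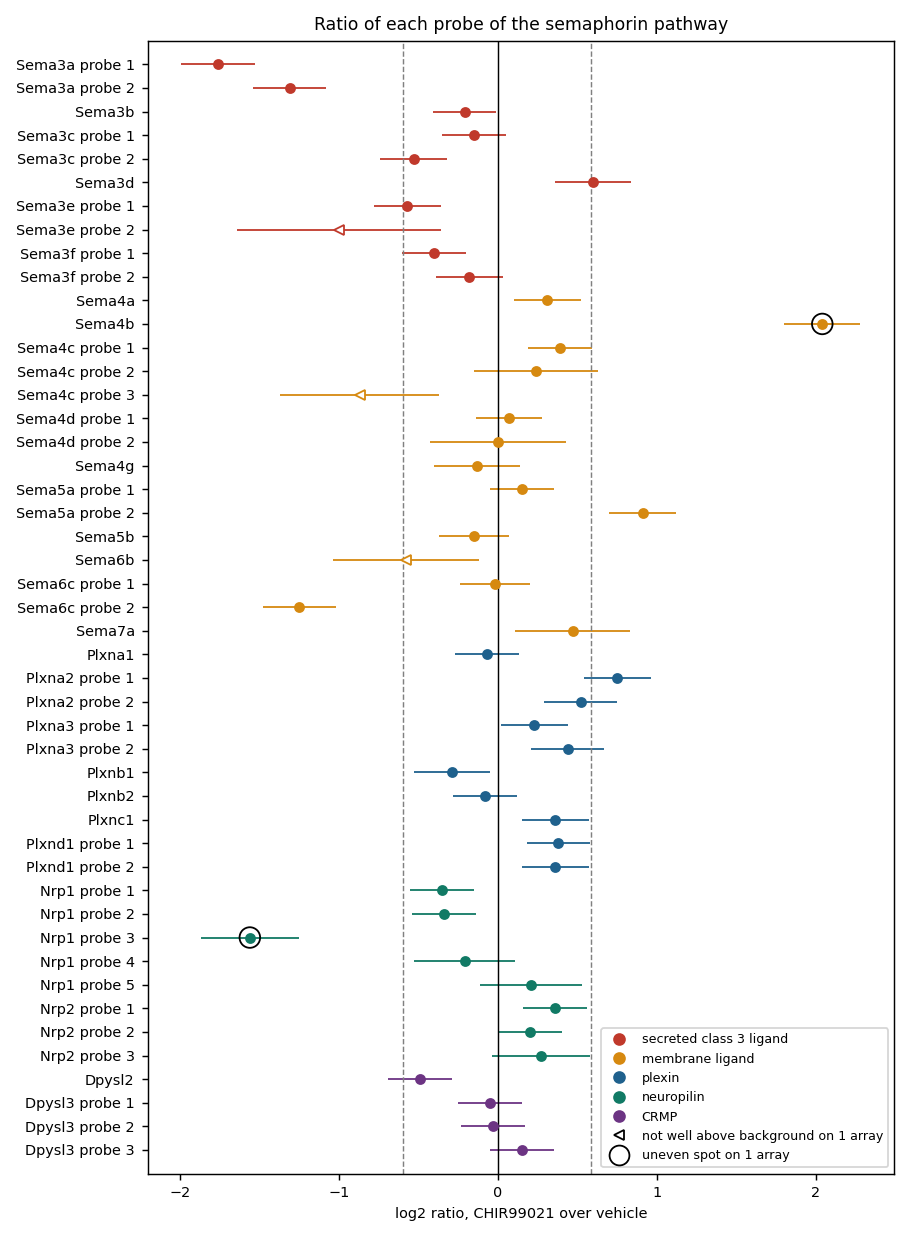
Log2 ratio of CHIR99021 over vehicle for each of the 47 probes, with the error from Feature Extraction as bars and the class as colour. Dashed lines mark ratios of 0.66 and 1.5, open triangles are probes not well above background on the CHIR99021 array, and circles ring uneven spots. Both Sema3a probes lie left of the lower line, while the plexin probes sit mostly between 0 and the upper line.

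Sema3a, the prototype class 3 semaphorin and a repellent of growing axons, had the lowest ratio of the family. Its probe at chr5:13602449-13602508 (mm9, plus strand) read 316.8 on the vehicle array and 90.4 on the CHIR99021 array. The second probe, at chr5:13600898-13600957, read 211.2 and 82.1. The CHIR99021 signal was lower at both places of the transcript, with ratios of 0.296 and 0.403. The log2 ratios were -1.76 ± 0.23 and -1.31 ± 0.23, and the Z-scores were -3.63 and -2.41, so both probes passed both criteria. The third Sema3a probe read 5.2 and 5.7, at the level of the negative controls. Both probes that gave signal lay in the late rows of the array, at rows 365 and 374 of 384. Around the first, 6 of 48 spots within 3 rows and columns were on/off spots, that is, well above background on 1 array alone and over 4-fold different, whereas around the second there were 0 of 46. The 8 spots next to each had median log2 ratios of 0.12 and -0.12. The first 30 bases of these probes, which define what was measured as Sema3a, were as follows.
Sema3a at chr5:13602449-13602508: tcattgcatttcagatgggaactagaaaac
Sema3a at chr5:13600898-13600957: gtgttttatctcaatgagagtgaaactata

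Because CHIR99021 acts on β-catenin, which binds DNA through TCF and LEF factors, the promoters were read for the letters CTTTGA and CTTTGT, the core that these factors are known to bind, on both strands. The sequences are those of RefSeq on build GRCm38.p6, cut to the 250 bases before the start. They were given for 28 of the 36 genes, while Sema3b, Sema3f, Sema6a, Plxna1, Plxna4, Dpysl2, Dpysl3 and Dpysl4 had no entry. A match was present in 10 of the 40 promoters of the family (25%) and in 27.6% of all 32851 promoters. Sema3a held 1 match, shown in capitals, that began 135 bases before the start.
Sema3a promoter, chr5:13396534-13396783, plus strand: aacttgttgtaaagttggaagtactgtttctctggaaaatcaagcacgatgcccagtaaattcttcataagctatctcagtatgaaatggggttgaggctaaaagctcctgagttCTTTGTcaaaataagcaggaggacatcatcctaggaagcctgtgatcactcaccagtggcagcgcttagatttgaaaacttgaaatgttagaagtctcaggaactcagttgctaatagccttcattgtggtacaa
The promoter of Sema3d held 2 matches, that of Sema3e held 1 and that of Sema3c none. These are descriptions of letters in a window, and binding was not measured.

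Of the other class 3 ligands, 7 probes were measured on both arrays, and 6 of them had a ratio below 1, where 44.6% of all such probes did. Their median log2 ratio was -0.21 against 0.04 for all probes measured on both arrays, and 1 was at least 1.5, while none was at most 0.66. With both Sema3a probes the median of the class was -0.40. The probes came from 5 genes, of which 4 were below 1 at the probe with the highest mean signal. Sema3e, which signals through Plxnd1 without a neuropilin, read 508.4 and 331.0 at its bright probe, a ratio of 0.675 that just missed the criterion, and its log2 ratio was -0.57 ± 0.21. Its dim probe read 31.1 and 15.0 and was not well above background after CHIR99021, so that it was at least 1.14-fold lower. Sema3c, a ligand in heart and vessel development, read 14830 and 12887 at its bright probe and 470 and 313 at the other, with ratios of 0.901 and 0.691. The dimmer Sema3c probe differed from 0 by more than 2 errors (log2 ratio -0.53 ± 0.21) and the brighter did not (-0.15 ± 0.20).

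Sema3b and Sema3f, neighbours on chr9 that are known as candidate tumour suppressors, were also below 1. Sema3b read 1120 and 933, a ratio of 0.864. Sema3f read 2371 and 1728 at one end and 297 and 252 at a probe whose 60 bases are split over a stretch of 339 bases of the genome. The Sema3f ratios were 0.756 and 0.881, and neither log2 ratio passed 2 errors. Sema3d was the only class 3 gene above 1: it read 81.4 and 119.1, a ratio of 1.52 with a log2 ratio of 0.60 ± 0.24. Its Z-score was 0.91, so that it met the ratio criterion by a small margin and not the Z-score. Sema3a, Sema3c, Sema3d and Sema3e lie on the same chromosome, with probes between chr5:12588784-12588843 and chr5:17235981-17236040, and their ratios ran from 0.296 to 1.52.

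The membrane ligands did not share a direction. Of their 15 probes with signal, 2 were lower, 2 were higher and 11 were between, and 9 had a ratio above 1, against 9.68% lower, 8.24% higher and 53.3% above 1 among all tested probes. The lower probe of Sema4c is only a limit. Sema4a (186.2 and 222.3), Sema4d (303.2 and 306.4), Sema4g (65.3 and 57.7) and Sema5b (160.8 and 139.5) each lay within 2 errors of a log2 ratio of 0. Sema4d, also known as CD100 and a ligand of Plxnb1, had ratios of 1.05 at this probe and 1.00 at a dim probe that read 28.7 and 27.7. Sema7a, which is anchored to the membrane by a lipid and binds Plxnc1, read 35.5 and 47.5, a log2 ratio of 0.47 ± 0.36. Sema6b read 35.1 and 22.7 and was not well above background after CHIR99021, so it was at least 1.29-fold lower.

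Sema4b had the highest ratio of the family, at an uneven spot. Its only probe read 57.8 on the vehicle array and 229.3 on the CHIR99021 array, a ratio of 4.12. The CHIR99021 spot was uneven, with a pixel SD of 0.459 of the mean where the 99th percentile of spots well above background was 0.337. Among 45 spots within 3 rows and columns, 12 were on/off spots of that kind, and the 8 adjacent spots had a median log2 ratio of 1.44. The part of the spot's surroundings in this ratio was not tested.

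Sema5a, a ligand with thrombospondin repeats, and Sema6c each gave different readings at the 2 probes with signal. The other 6 of the 8 Sema5a probes were not well above background on either array. The Sema5a probe at chr15:32626025-32626084 read 334.2 and 603.8, a ratio of 1.87 with a log2 ratio of 0.91 ± 0.21. Its Z-score was 2.42, so that it passed both criteria. The other, at chr15:32493248-32493307, read 573.4 and 613.1, a ratio of 1.11. Sema6c read 152.3 and 144.8 at chr3:94977179-94977238, a ratio of 0.986, and 185.9 and 75.1 at chr3:94977887-94977946, a ratio of 0.419. The Sema6c probes thus differed more than their errors of 0.22 and 0.23 on the log2 scale, although both were measured on both arrays and neither spot was uneven. Their first 30 bases, shown because the reading depends on which of them is used, were as follows.
Sema6c at chr3:94977179-94977238: ccgccccgcacggtggtcatttcaacttct
Sema6c at chr3:94977887-94977946: tggggtgggagagggaacttttggagaaat

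The reading of Sema4c, a ligand of Plxnb2, differed between its 3 probes. The probe at chr1:36605998-36606057 (minus strand) read 14928 and 18850, a ratio of 1.31. The probe beside it, at chr1:36606063-36606122, read 44.2 and 23.3 and was at least 1.62-fold lower, and the probe at chr1:36612857-36612916 read 34.7 and 39.4, a ratio of 1.18. The bright probe begins with a run of 11 TG units, here in capitals, and its neighbour holds none.
Sema4c bright probe, bases 1 to 30: aaTGTGTGTGTGTGTGTGTGTGTGttgtaa
Sema4c neighbouring probe, bases 1 to 30: tgcaaggaagaggtttcaagatgtgggcgt

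The brightest probe of Nrp2 holds a run of 13 such units. It lies at chr1:62843061-62843120 and read 8674 and 10703, a ratio of 1.28. A second Nrp2 probe, at chr1:62865129-62865188, has no such run and read 7736 and 8585, a ratio of 1.15.
Nrp2 probe with the run, bases 26 to 55: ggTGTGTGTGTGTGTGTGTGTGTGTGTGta
Nrp2 probe without it, bases 1 to 30: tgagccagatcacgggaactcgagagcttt
After these values were seen, the array was searched for the run TGTGTGTGTGTGTGTG, that is 8 TG units, in the probe sequence as given. It was held by 69 probes of 69 gene names. All 69 were well above background on the vehicle array, where 47.7% of all probes were, with a median signal of 8674 and a range from 187 to 53879. Their ratios had a median of 1.27 and quartiles of 1.24 and 1.29. The 2072 other tested probes with mean signals between the quartiles of these probes had a median ratio of 1.07 and quartiles of 0.958 and 1.19. The ratio of the Nrp2 probe (1.28) lay inside the quartiles of the probes with a run and that of the Sema4c probe (1.31) just above them. How much of either signal came from the repeat was not tested. Without its repeat probe, Sema4c was read by dim probes alone.

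**Figure D3:**
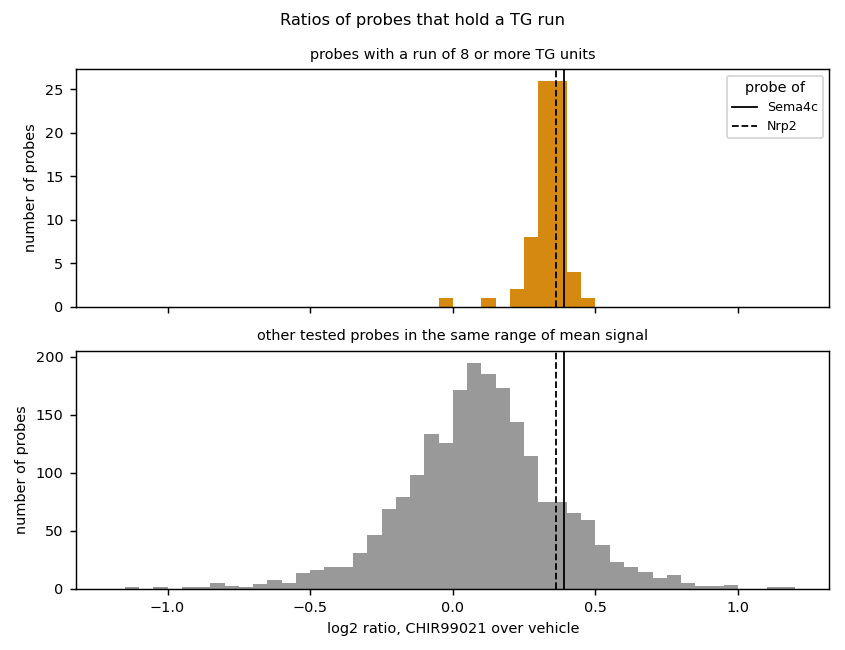
Number of probes by log2 ratio of CHIR99021 over vehicle, for the 69 probes with a run of 8 or more TG units (top) and for 2072 other tested probes of like mean signal (bottom). Vertical lines mark the Sema4c and Nrp2 probes that hold such a run, which fall in the narrow peak of the upper panel.

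The plexins, the receptors, did not share a direction, with 4 of 7 genes above 1 and 3 below at the probe with the highest mean signal. Of 10 plexin probes with signal, 7 had a ratio above 1, where 53.3% of all tested probes did, 1 was at least 1.5 and 0 were at most 0.66, and the median log2 ratio was 0.36 against 0.03 for all tested probes. Plxna2, a receptor for class 3 and class 6 semaphorins, read 206.1 and 333.1 at one probe and 96.1 and 133.0 at the other. Both Plxna2 probes were higher after CHIR99021, by log2 ratios of 0.75 ± 0.21 and 0.52 ± 0.23, and the ratios were 1.68 and 1.44. The Z-scores were 1.67 and 0.90, so neither passed 2.0. Plxnd1, the receptor of Sema3e, read 6279 and 7863 at its bright probe and 430 and 532.5 at the other, and the ratios of 1.30 and 1.28 lay close together. Plxna3 read 423.0 and 478.0, and 102.0 and 133.6, with ratios of 1.17 and 1.36.

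Plxnc1, the receptor of Sema7a, read 156.8 and 194.2, a ratio of 1.29. Plxna1, which pairs with neuropilins for Sema3a, read 1697 and 1562, a ratio of 0.955. Plxnb2 read 18745 and 17063, a ratio of 0.944, and Plxnb1, the receptor of Sema4d, read 107.8 and 85.0, a ratio of 0.818. Apart from Plxna2, no plexin probe differed from 0 by more than 2 errors.

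The neuropilins gave 8 probes with signal, 4 above 1 and 4 below. Nrp1, the co-receptor of Sema3a and also a receptor of Vegfa, read 2472 and 1874 at its brightest probe (chr8:131027137-131027196) and 698 and 532 at the next (chr8:131028306-131028365). These ratios were 0.786 and 0.791, with log2 ratios of -0.35 ± 0.20 and -0.34 ± 0.20. Another probe, at chr8:130992273-130992332, read 131.2 and 42.8, a ratio of 0.339. Its vehicle spot was uneven, 4 of 47 spots around it were on/off spots, and the 8 adjacent spots had a median log2 ratio of -0.77. The 2 remaining Nrp1 probes with signal read 51.2 and 42.5, and 42.2 and 47.2, with ratios of 0.862 and 1.16. The lower and the brightest Nrp1 probe began as follows.
Nrp1 at chr8:130992273-130992332: atggtgtctggacttatttcagactcccag
Nrp1 at chr8:131027137-131027196: ttgatggacatgtgacctgtagcccagtgc
For Nrp2, the co-receptor preferred by Sema3f, the probe without a TG run had a log2 ratio of 0.20 ± 0.20. A dim Nrp2 probe whose 60 bases are split over 11508 bases of the genome read 47.0 and 54.6, a log2 ratio of 0.27 ± 0.31, with 4 on/off spots among the 25 around it.

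Of the CRMPs, Dpysl2 and Dpysl3 gave signal. Dpysl2 (CRMP2), which binds tubulin and is a substrate of GSK-3, read 1453 and 999.4, a ratio of 0.713 with a log2 ratio of -0.49 ± 0.20, past 2 errors but not the ratio criterion. Its only probe lay at row 382 of 384, where 8 of 39 spots around it were on/off spots and the 8 adjacent spots had a median log2 ratio of -1.04. Dpysl3 (CRMP4) had 3 bright probes, which read 13428 and 12530, 3720 and 3517, and 1098 and 1171. Their ratios of 0.968, 0.981 and 1.11 all lay within 2 errors of no difference, and the second of these probes, which spans a split of 2497 bases, had 5 on/off spots among the 48 around it.

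Probes of the same gene agreed in most cases. Of 14 genes with at least 2 probes with signal, 11 had all ratios on the same side of 1 and 10 had ratios within 1.5 times of each other, where 68.4% and 81.0% of 6315 gene names on the array did. In 3 genes (Sema4c, Sema6c and Nrp1) the highest ratio was over 2 times the lowest. The median range of the log2 ratio within a gene was 0.30 for the family and 0.21 for all gene names. The 10 probes past a ratio criterion were unevenly placed, with 8 in the later rows of the array, past row 192, which held 23 of the 47 probes of the family and 52.1% of all tested probes. The part of array position in these ratios was not tested.

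The wider pathway was read from 49 further genes that act with semaphorins, of which 43 had a tested probe. At the probe with the highest mean signal, 2 (4.65%) were at most 0.66, 3 (6.98%) were at least 1.5 and 38 were between, against 9.68% and 8.05% of all gene names, and the median log2 ratio was 0.05. The shares were thus below those of the array, and the genes named next are descriptions. Mical1, an oxidase that disassembles actin filaments downstream of plexins, read 1400 and 564.6, a ratio of 0.419 with a log2 ratio of -1.26 ± 0.20. Erbb2, a receptor kinase that can associate with Plxnb1, read 2236 and 1368, a ratio of 0.635. Higher were Vegfa, which read 4574 and 7642, a ratio of 1.73, and Cdk5r1, the activator of Cdk5, which read 210.1 and 348.0, a ratio of 1.72. The adhesion molecule Nrcam was not well above background on the vehicle array (5.5, against 77.7 after CHIR99021) and was at least 3.4-fold higher.

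Other co-receptors and kinases differed less. Met, a partner of class B plexins, had a ratio of 1.27 (1246 and 1529), and Itgb1, through which Sema7a also signals, 1.03 (20626 and 20394). The kinase genes upstream of the CRMPs, Gsk3a, Gsk3b and Cdk5, had ratios of 1.16, 0.903 and 0.798.

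**Figure D4:**
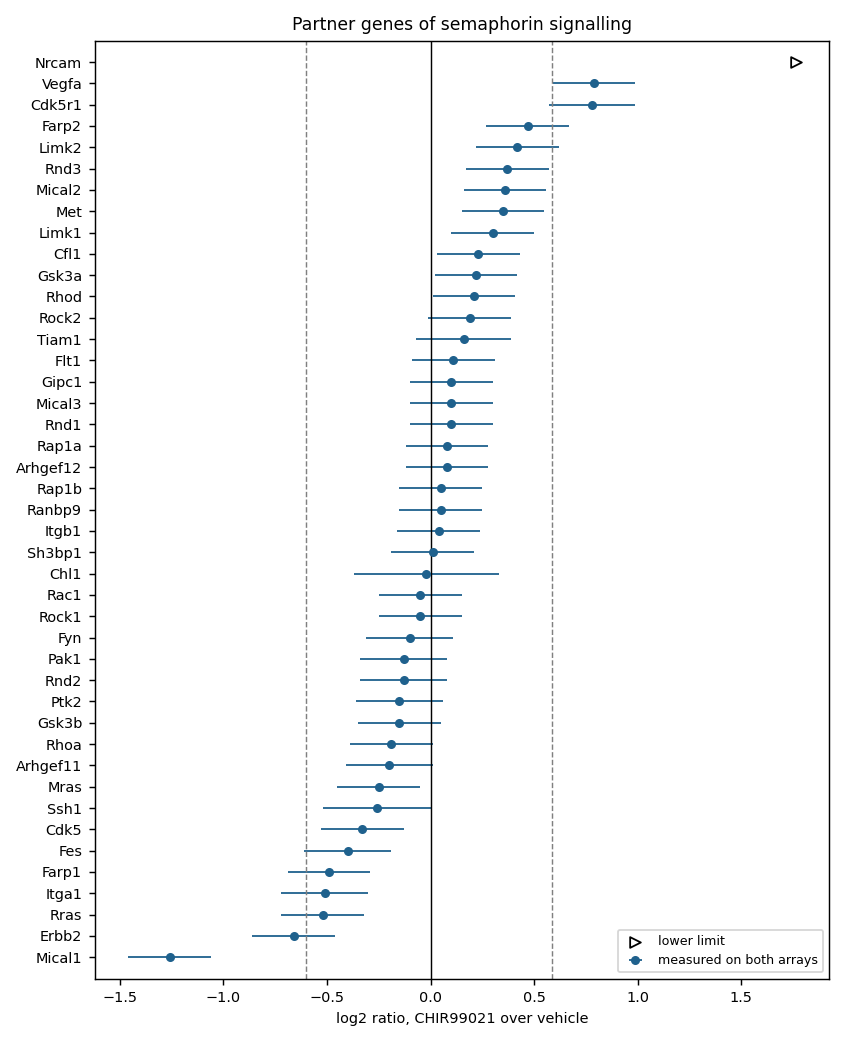
Log2 ratio of CHIR99021 over vehicle for 43 partner genes at their highest-signal probe, ordered by ratio, with the error from Feature Extraction as bars. Dashed lines mark ratios of 0.66 and 1.5, and the open triangle is the lower limit of Nrcam. Mical1 and Erbb2 lie left of the lower line, and Cdk5r1, Vegfa and Nrcam right of the upper line.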

How the data were processed

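Total RNA of mDE6 cells was labelled with Cy3, and the authors quantified 1 array per condition with Agilent Feature Extraction (version 9.5.1.1 per the labels, 10.7.1.1 per the file headers). The deposited intensities are background-subtracted spot signals that were not normalized between arrays. A further table of the authors, with normalized intensities, served as an alternative. The array name of the methods could not be settled from the files beyond the mouse design in their header, and coordinates are those of the files (mm9).

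From the deposited intensities, spots marked as outliers and control spots were left out, each array was divided by its 75th percentile, and spots of the same probe were averaged on the log2 scale (Python 3.11.15, numpy 2.4.6, pandas 2.3.3, matplotlib 3.10.9). A probe was used where it was well above background on at least 1 array. Where it was not on the other, the fold is a limit, taken against its own signal or the dimmest signal well above background there, whichever was higher. The criteria used the computed ratio. No spot was saturated (0 on each array).

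The genes, the partner and marker lists and the criteria were chosen with earlier results of these data known. Named were all family genes, partner genes past a criterion, and Met, Erbb2, Itgb1, Gsk3a, Gsk3b and Cdk5 in any case. Of the probes, 58 had an accession in the GRCm38.p6 gene table, all 58 with the same symbol. The calls were tested on simulated data, where 200 of 28064 probes set to a ratio of 0.5 were recovered at 83.5% by the ratio and 7.49% of unchanged probes were called. The simulated noise had the same SD at every signal level, 0.41, taken from the observed log2 ratios with any treatment differences in them. The changed probes were drawn from those measured on both arrays. These rates therefore do not describe calls at dim probes or limits. Alternatives were other scalings (with limma 3.58.1 in R 4.3.3 for quantile, cyclic loess and normexp with an offset of 50), other filters, a floor, uneven spots or later rows left out, and other rules for several probes. Leaving out probes with a TG or CA run and spots near clumps of on/off spots was chosen after seeing the data. With 1 array per condition there was no test.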

Additional observations from a re-analysis of the deposited data

How the results depend on the processing

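No paired analysis was possible because there was 1 array for each condition. The count of 27 genes well above background on the vehicle array stayed between 26 and 33 under its 3 alternatives. The 6 lower and 4 higher probes became 3 and 2 with the Z-score added and 2 and 0 in the earlier rows alone. They were 5 and 4 with a floor on low signals, 4 and 2 after normexp, 8 and 8 without a filter, 4 and 1 at 2-fold, 4 and 4 with probes measured on both arrays, and 8 and 3 both without scaling and with the percentile over probes detected on both arrays. The median log2 ratio of -0.03 was -0.08 with quantile, cyclic loess, no scaling, the percentile over probes detected on both arrays and the authors' table. It was 0.0 with the median of each array and normexp, 0.06 with spike-in probes, 0.18 without a filter and -0.14 in the earlier rows. All tested probes moved with the scaling, from a median of 0.03 to 0.11 with spike-in probes and -0.03 without scaling. The 2 lower partner genes became 1 with spike-in probes and in the earlier rows, 3 with quantile scaling and the authors' table, and 4 without a filter, and the 3 higher became 2 with probes measured on both arrays and in the earlier rows and 4 without a filter. The causes of these differences were not tested, beyond fewer or more probes entering a count. Of 431 gene ratios under 17 alternatives, 0 of those past a criterion crossed 1 and 19, of 11 genes, moved by more than the error of their log2 ratio. Many of the 431 could not move, because a filter that keeps a gene's probe leaves its ratio unchanged. A gene that lost its probes, as Sema4b did without uneven spots, was not counted. The share that moved is therefore no measure of robustness. Sema3a kept a ratio between 0.285 and 0.314 under the scalings and read 0.436 after normexp and 0.403 without its spot near on/off spots. Normexp gave Sema4b 2.4 and Sema3d 1.25. Sema6c, Plxna1 and Dpysl3 lay on either side of 1 depending on the scaling. With the mean over a gene's tested probes, Sema4c went from 1.31 to 0.945 and Sema6c from 0.986 to 0.643, and the second-brightest probe gave 0.419 for Sema6c and 1.87 for Sema5a in place of 1.11. With probes holding 8 TG or CA units left out, the counts remained 6 and 4. Without uneven spots they were 5 and 3, and without spots near on/off spots 4 and 3. Signal over background limits dim probes: the error of the log2 ratio ran from 0.20 to 0.43 among probes measured on both arrays, and it was 0.64 for the Sema3e probe that was not well above background after CHIR99021.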
